A study of Mus musculus with 15 samples.

Results

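Side population (SP) sorting was applied to cultures of a mouse brain tumour and to cultures of untransformed neural cells, and the question here was which genes distinguished SP from non-SP cells in the same direction in both origins and which did so in opposite directions. The comparison was the SP minus non-SP difference in tumour line 3447 set against the SP minus non-SP difference in neurospheres. It used 12 of the 15 arrays of the series, namely the 4 groups in which both sorted fractions were measured, with 3 arrays in each. The remaining 3 arrays, SP cells of tumour line 4346, had no non-SP counterpart and entered neither difference. They did enter the normalization, the filter on low signals, the choice of probe sets and the estimate of the spread.

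The tumour groups held the SP and the non-SP fraction of line 3447, tumorspheres (free-floating cultures) from a brain tumour of a mouse that carried the S100beta-verbB transgene and lacked 1 or both copies of p53 (p53+/- or p53-/-; the labels do not say which for line 3447). The line had been injected into the brains of 3 immunodeficient recipients (strain NOD.Cg-Prkdc<scid>Il2rg<tm1Wjl>/SzJ), and tumorspheres were grown again from each recipient before sorting, so that the 3 arrays of a fraction were replicates of 1 tumour line and not of independent tumours. The neurosphere groups held the same fractions sorted from untransformed neurospheres of S100beta-verbB;p53-/- or S100beta-verbB;p53+/- animals, so the control cells carried the transgene and the p53 alleles too. The study text names 3 independent source mice in one passage but speaks elsewhere of neurosphere-injected recipients, and the origin of these cultures is uncertain to that extent. In the transgene the promoter of S100beta, a glial gene, drives verbB, an oncogenic form of the EGF receptor. All groups were measured after culture and sorting, and age was not given. Because each group is a bulk sample, fewer cells of a type and less RNA per cell cannot be told apart in any value below.

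A side population is the fraction of a culture that keeps little of a DNA-binding dye, because ATP-binding cassette (ABC) transporters, above all Abcg2, pump the dye out. Such fractions are enriched for stem or progenitor cells in some tissues, and in brain tumour cultures they have been studied as candidate tumour-initiating cells. A dye that binds DNA also reads DNA content and cell cycle stage, and sorting itself can induce stress-response genes, so cell cycle and immediate early genes are of interest in any such comparison.

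Array signals are in arbitrary units after quantile normalization, which gave every array the same median of 52.8; signals near or below that median are close to background. SP effects are differences of log2(signal + 16) between the means of 3 SP and 3 non-SP arrays, given with standard errors (SE) from a limma model of all 15 arrays. These SE leave out the pairing of neurosphere arrays described below. The added 16 makes differences of low signals smaller. Before normalization the array medians lay between 40.0 and 89.3. The highest of these belonged to array 3 of the 3447 SP, which also correlated least with its group (mean rank correlation 0.855), and array 3 of the 4346 SP had the highest ratio of 3' to 5' actin signal (5.30). Among the 12 arrays, the neural stem cell markers Nes and Sox2 lay above their own array's median in 12 of 12. The microglial markers Aif1, Cx3cr1 and Ptprc, the endothelial markers Pecam1 and Cdh5 and the smooth muscle marker Myh11 did so in 0 of 12, and the pericyte marker Rgs5 in 3 of 12. The filter on low signals asked for a signal above the array's median in at least 3 arrays, so a gene high in 1 group alone could pass. Of 14 microglia and macrophage genes on the array 3 passed this filter, Cd68, Fcer1g and Laptm5. Their medians were 0.45 in line 3447 and 0.53 in neurospheres, with Cd68, a lysosomal protein of macrophages, at 0.57 ± 0.52 and 1.05 ± 0.52 and Laptm5 at -0.65 ± 0.45 and 0.53 ± 0.45. Of 13 endothelial genes 3 passed it, Flt1, Emcn and Egfl7, with medians of 0.32 and 0.50, and Flt1, a VEGF receptor, was at 0.74 ± 0.63 and 1.05 ± 0.63. None of these 6 passed the average or the interaction test, and the part of such cells in the results was not tested.

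More of the genes called on the average of both origins were higher than lower in SP cells, by a margin that depended on the scaling. Averaged over the 2 origins, 20 of 11908 genes passed (0.168%, limma with Benjamini-Hochberg adjustment at 0.05; 8.78% had an unadjusted p under 0.05), of which 17 were higher in SP cells (0.143%) and 3 lower (0.0252%). They included Smad7, Atf3, Crebrf and Ccn1, an inhibitor of TGF-beta signalling, a stress-induced transcription factor, a regulator of a CREB family factor and a secreted matrix protein. With arrays centred on their medians in place of quantile normalization, 12 genes passed, 7 higher and 5 lower, and 6 of the 20 were among them. The average can be carried by 1 origin, so a stricter joint test, which takes the larger of both p-values and asks for 1 direction, stands beside it. By that test 0 genes passed after adjustment (0%), and 103 had an unadjusted p under 0.05 in both origins with 1 direction (0.865%), 77 of them higher in SP cells (0.647%) and 26 lower (0.218%). The arrays separated completely in the same direction in both origins for 160 genes (1.34%, where 17.5% separated in line 3447 and 7.6% in neurospheres), 97 with SP higher (0.815%) and 63 with SP lower (0.529%).

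Opposite effects were fewer. The test of the difference between the 2 SP effects, the interaction, called 0 of 11908 genes in limma (0%). An interaction is measured less precisely than an average, with an SE of 0.45 against 0.22 for Smad7, so 0 calls do not show equal effects. For 266 genes the unadjusted p of the interaction was under 0.05 (2.23%), 123 with the effect higher in line 3447 (1.03%) and 143 with it lower (1.2%). A share of 0.05 would be reached with no effects at all, so these 266 genes are not an excess. The neurosphere share given below, 3.59%, also lies under it. Only 5 genes had an unadjusted p under 0.05 in each origin with opposite signs (0.042%), 4 of them lower in 3447 SP cells and higher in neurosphere SP cells (0.0336%) and 1 the other way (0.0084%). In 45 genes the arrays separated completely in opposite directions (0.378%), 29 of them lower in 3447 SP and higher in neurosphere SP (0.244%) and 16 the other way (0.134%). With so few arrays per group, complete separation also arises with no effects at all, so these 45 genes are not shown to be an excess. Of the genes at unadjusted p under 0.05, the 108 found in both origins (0.907% of all genes) were 12.6% of the 859 genes in line 3447 (7.21% of all genes) and 25.2% of the 428 in neurospheres (3.59%). Their effects had the same sign in the other origin for 78.6% of the line 3447 genes and 77.3% of the neurosphere genes, against 58.8% of all genes.

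Across the 11908 genes the effects had a Pearson r of 0.315 and a Spearman rho of 0.263, as a description in which genes are not independent replicates; the 2 effects share no array. The correlation was 0.234 in the 3970 genes with the lowest mean signals, 0.414 in the next 3969 and 0.409 in the 3969 with the highest. Effects were spread more widely in line 3447, with a standard deviation over genes of 0.427, than in neurospheres, with 0.356. Without array 2 of the 3447 SP the correlation was 0.238.

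**Figure D1:**
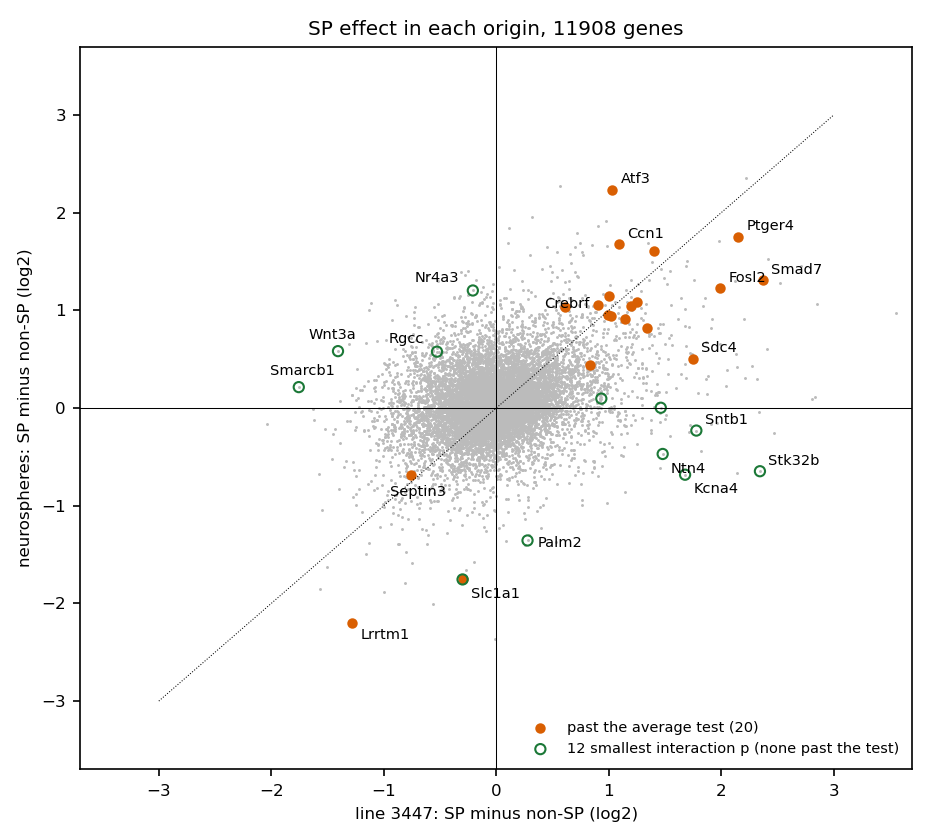
SP effect of each of 11908 genes in line 3447 (horizontal axis, log2 SP minus non-SP) and in neurospheres (vertical axis, log2 SP minus non-SP); the dotted line marks equal effects. The 20 genes past the test of the average effect, filled circles, lie in the upper right and lower left, and the 12 genes with the smallest interaction p, open circles, of which 0 passed after adjustment, lie away from the line of equal effects.

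The number of shared calls depended on single arrays and on the treatment of pairs. Equal replicate numbers paired the SP and non-SP arrays of the neurospheres. In line 3447 equal numbers did not pair, while each SP array correlated positively with 1 non-SP array of another number. No pairing of that kind was fitted. With a block for the neurosphere pairs, 95 genes passed the average test, 74 higher and 21 lower, including all 20 above. Under this block 186 genes were at unadjusted p under 0.05 in both origins with 1 direction, and 412 had an interaction at unadjusted p under 0.05. Leaving out 1 array gave between 4 and 28 calls of the average. The count was 4 without array 3 of the 3447 SP, array 2 of the 3447 non-SP or array 2 of the neurosphere SP; it was 5 to 7 without any other of the 12 compared arrays or without array 2 of the 4346 SP, except for 16 and 22 without arrays 1 and 3 of the neurosphere non-SP. Smad7, Atf3, Crebrf and Ccn1 passed in all 15 of these fits.

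Crebrf, whose product promotes breakdown of the CREB family factor Creb3, had the smallest joint p. Its signals were 5881, 5423 and 4848 in 3447 SP and 2237, 2606 and 3156 in 3447 non-SP arrays. In neurospheres they were 834, 831 and 805 in SP and 397, 365 and 514 in non-SP arrays. All SP arrays lay above all non-SP arrays of their origin, at levels several times higher in the tumour line. The log2 effects of Crebrf were 1.02 ± 0.18 in line 3447 and 0.94 ± 0.18 in neurospheres, an average of 0.98 ± 0.13 that passed (adjusted p = 0.00518), and they differed by 0.08 ± 0.26. Both other probe sets of Crebrf had averages in the same direction, 0.86 and 0.92. Crebrf did not pass after centring arrays on their medians (adjusted p = 0.498).

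Smad7, which blocks TGF-beta receptor signalling and is itself induced by it, had signals of 619, 444 and 414 in 3447 SP and 118, 86.7 and 49.5 in 3447 non-SP arrays. Its neurosphere signals were 290, 185 and 219 in SP and 107, 77.5 and 67.5 in non-SP arrays. The fractions did not overlap in either origin, and the non-SP levels of both origins were similar. Smad7 rose on average by 1.84 ± 0.22 (adjusted p = 0.00518). The effect of Smad7 was 2.37 ± 0.32 in line 3447 and 1.31 ± 0.32 in neurospheres, a difference of 1.07 ± 0.45 that did not pass (adjusted p = 0.999). Another TGF-beta feedback gene, Skil, a repressor of Smad complexes, separated in line 3447 alone, with 4358, 3468 and 4267 in SP and 2309, 2050 and 1932 in non-SP arrays. The neurosphere signals of Skil, 3995, 4870 and 3529 in SP and 3654, 4233 and 3627 in non-SP arrays, overlapped. Its interaction of 0.84 ± 0.24 was among the 12 with the smallest p and did not pass (adjusted p = 0.999). Of 29 measured TGF-beta and BMP genes, 15 were above 0 in both origins and 7 below 0 in both, against 32% and 26.8% of all genes. Of these 29, 1, Smad7, passed the average test, and the list medians were 0.31 in line 3447 and 0.20 in neurospheres. This and all other lists were chosen with earlier results of these data known, so their counts are not independent support.

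Atf3, a transcription factor of the ATF/CREB family that is induced by many stresses, had signals of 555, 1658 and 802 in 3447 SP and 407, 421 and 477 in 3447 non-SP arrays. In neurospheres the Atf3 signals were 1009, 1268 and 1228 in SP and 225, 219 and 261 in non-SP arrays. SP and non-SP arrays separated in both origins, narrowly in the tumour line and widely in neurospheres. Atf3 rose on average by 1.63 ± 0.22 (adjusted p = 0.00518), with 1.03 ± 0.31 in line 3447 and 2.24 ± 0.31 in neurospheres. The difference, -1.20 ± 0.43, did not pass (adjusted p = 0.999). Fosl2, a Fos family subunit of the AP-1 transcription factor, also rose on average, by 1.61 ± 0.29 (adjusted p = 0.0451). Fosl2 signals were 3830, 3868 and 3120 in 3447 SP and 1089, 509 and 1274 in 3447 non-SP arrays, against 7090, 4133 and 3339 in neurosphere SP and 3941, 1028 and 1835 in neurosphere non-SP arrays, and the neurosphere fractions overlapped with each SP array above the non-SP array of its own number. Another probe set of Fosl2 had an average of 0.89. Fosl2 passed in 3 of the 15 fits that left out an array.

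Both genes belong to a list of 30 measured immediate early and AP-1 genes, those that cells switch on within minutes of a stimulus. In neurospheres 30 of 30 lay above 0, against 57% of all genes, and 19 of 30 did in line 3447, against 48.3% of all genes. The list medians were 0.13 in line 3447 and 0.47 in neurospheres, beside -0.01 and 0.04 for all genes, and the line 3447 median was -0.25 with arrays centred on their medians, a scaling that put the line 3447 median of all genes at -0.37. The mean log2 level of the list was 10.40, 10.84 and 10.65 in 3447 SP and 10.54, 10.17 and 10.39 in 3447 non-SP arrays, which overlapped. It was 10.50, 10.71 and 10.55 in neurosphere SP and 9.91, 9.80 and 10.13 in neurosphere non-SP arrays, which did not. Of the 30 genes, 2 passed the average test and 0 the interaction, and 25 had an interaction below 0, against 55.3% of all genes. Nr4a3, a nuclear receptor induced as an immediate early gene, had 1341, 1976 and 1649 in 3447 SP and 1923, 1466 and 2398 in 3447 non-SP arrays, against 763, 920 and 664 in neurosphere SP and 294, 300 and 398 in neurosphere non-SP arrays. Only its neurosphere fractions separated, and its interaction of -1.41 ± 0.39 did not pass (adjusted p = 0.999). Fos itself was among the brightest genes in both fractions, between 12585 and 17385 in the 12 arrays, with an average effect of -0.01 ± 0.07.

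Ccn1, a secreted matrix-associated protein and a target of the YAP and SRF transcription pathways, had signals of 2419, 2899 and 1174 in 3447 SP and 862, 1125 and 852 in 3447 non-SP arrays. In neurospheres the signals of Ccn1 were 4945, 3941 and 3574 in SP and 1370, 1367 and 1103 in non-SP arrays. No overlap was seen in either origin, with array 3 of the 3447 SP just above the highest 3447 non-SP array. Ccn1 rose on average by 1.39 ± 0.20 (adjusted p = 0.00961), and its effects of 1.09 ± 0.28 in line 3447 and 1.68 ± 0.28 in neurospheres differed by -0.59 ± 0.40. It did not pass after centring arrays on their medians (adjusted p = 0.192), or when its probe sets were averaged (adjusted p = 0.0928).

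Ccn1 is 1 of 20 measured CCN, YAP and SRF target genes, of which 14 were above 0 in both origins, against 32% of all genes, and 0 below 0 in both; 1 passed the average test. Their medians were 0.38 in line 3447 and 0.26 in neurospheres. The mean log2 level of these genes was 9.37, 9.30 and 9.15 in 3447 SP and 8.59, 8.85 and 8.70 in 3447 non-SP arrays. It was 9.21, 9.09 and 9.10 in neurosphere SP and 8.64, 8.72 and 8.86 in neurosphere non-SP arrays. The fractions separated in both origins, at nearly equal levels.

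Matrix and mesenchymal genes, which encode collagens, fibronectin and their partners, showed the same order at different levels. Of 29 measured, 18 were above 0 in both origins and 3 below 0 in both, against 32% and 26.8% of all genes. The medians were 0.58 in line 3447 and 0.37 in neurospheres, and 0 of these genes passed the average test. Their mean log2 level was 9.82, 9.48 and 9.35 in 3447 SP and 8.56, 9.17 and 8.73 in 3447 non-SP arrays, against 8.14, 8.37 and 8.35 in neurosphere SP and 7.77, 8.08 and 8.09 in neurosphere non-SP arrays. The fractions did not overlap in either origin. Without array 3 of the neurosphere SP the neurosphere median was 0.08, and without array 1 of the neurosphere non-SP it was 0.11. Col6a1, a chain of collagen VI, had 3371, 4181 and 2048 in 3447 SP and 738, 1936 and 1641 in 3447 non-SP arrays, against 357, 250 and 291 in neurosphere SP and 186, 87.6 and 120 in neurosphere non-SP arrays. All SP arrays of Col6a1 lay above the non-SP arrays of their origin, and its average of 1.17 ± 0.33 did not pass (adjusted p = 0.238). Among 12 pericyte and smooth muscle markers, 6 passed the filter on low signals, which a marker high in 1 group alone can pass. All 6 were above 0 in line 3447 and 5 in neurospheres, against 48.3% and 57% of all genes. These counts are not independent of the filter. Their mean log2 level ran from 7.98 to 8.52 in 3447 SP and from 7.49 to 7.71 in 3447 non-SP arrays, against 7.47 to 8.16 in neurosphere SP and 7.39 to 7.69 in neurosphere non-SP arrays, and Myh11 was above the array median in 0 of 12 arrays. The part of such cells in the matrix and YAP values was not tested.

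Lmna, the gene of the nuclear lamina proteins lamin A and C, had signals of 8467, 9365 and 8072 in 3447 SP and 3547, 3983 and 5725 in 3447 non-SP arrays. The neurosphere signals of Lmna were 3721, 4035 and 2791 in SP and 2411, 1418 and 1670 in non-SP arrays. The fractions separated in both origins, and the effects were nearly equal, 0.99 ± 0.23 in line 3447 and 0.95 ± 0.23 in neurospheres. Lmna rose on average by 0.97 ± 0.16 (adjusted p = 0.0444), and both of its other probe sets gave averages in that direction, 0.88 and 1.23. It passed in 6 of the 15 fits that left out an array, and it did not pass after centring arrays on their medians (adjusted p = 0.498).

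Dusp10, a phosphatase that inactivates the stress kinases p38 and JNK, rose on average by 1.07 ± 0.19 (adjusted p = 0.0451). Its signals were 1346, 1617 and 1202 in 3447 SP and 649, 574 and 841 in 3447 non-SP arrays, against 2730, 2246 and 2476 in neurosphere SP and 1078, 1540 and 825 in neurosphere non-SP arrays. SP lay above non-SP in every array of both origins, but another probe set of Dusp10 gave an average of only 0.26, and Dusp10 passed in 3 of the 15 fits that left out an array. H3f3b, which encodes the histone variant H3.3, rose on average by 1.17 ± 0.21 (adjusted p = 0.0454). H3f3b had 1157, 808 and 604 in 3447 SP and 320, 331 and 366 in 3447 non-SP arrays, against 782, 1003 and 774 in neurosphere SP and 408, 404 and 364 in neurosphere non-SP arrays. Its SP arrays lay above the non-SP arrays in both origins, and it passed in 2 of those 15 fits.

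Among the genes with a prostaglandin role, Ptger4, a receptor for prostaglandin E, rose on average by 1.95 ± 0.32 (adjusted p = 0.0431). Ptger4 had 378, 247 and 242 in 3447 SP and 59.5, 66.6 and 32.7 in 3447 non-SP arrays. In neurospheres it had 509, 1458 and 1016 in SP and 229, 135 and 547 in non-SP arrays. The tumour fractions separated, while neurosphere SP array 1 lay below neurosphere non-SP array 3, and the call held in 4 of the 15 fits that left out an array. The 6 measured prostaglandin genes had mean log2 levels of 7.89, 7.87 and 7.41 in 3447 SP and 6.86, 7.40 and 7.10 in 3447 non-SP arrays, and 8.50, 8.73 and 7.98 in neurosphere SP and 7.75, 7.44 and 7.53 in neurosphere non-SP arrays. The fractions did not overlap in either origin, but the margin in line 3447 was very narrow, 7.41 against 7.40. Of the 6 genes, 1 passed the average test.

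Rab26os, a noncoding transcript from the strand opposite Rab26, rose on average by 1.51 ± 0.27 (adjusted p = 0.0451). It had 79.0, 108 and 113 in 3447 SP and 32.9, 21.8 and 28.6 in 3447 non-SP arrays, against 274, 185 and 355 in neurosphere SP and 70.7, 52.0 and 112 in neurosphere non-SP arrays. The fractions separated in both origins, and the 3447 non-SP signals of Rab26os lay below the array median. Sdc4, a cell-surface heparan sulfate proteoglycan, rose on average by 1.13 ± 0.20 (adjusted p = 0.0451), but unequally. Sdc4 had 4410, 4007 and 3636 in 3447 SP and 1251, 929 and 1421 in 3447 non-SP arrays, against 10625, 9973 and 7671 in neurosphere SP and 9888, 4158 and 6892 in neurosphere non-SP arrays. Only the tumour fractions of Sdc4 separated, its effects differed by 1.24 ± 0.40 (adjusted p = 0.999), and another probe set gave an average of 0.14. Rab26os passed in 3 and Sdc4 in 4 of the 15 fits that left out an array.

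**Figure D2:**
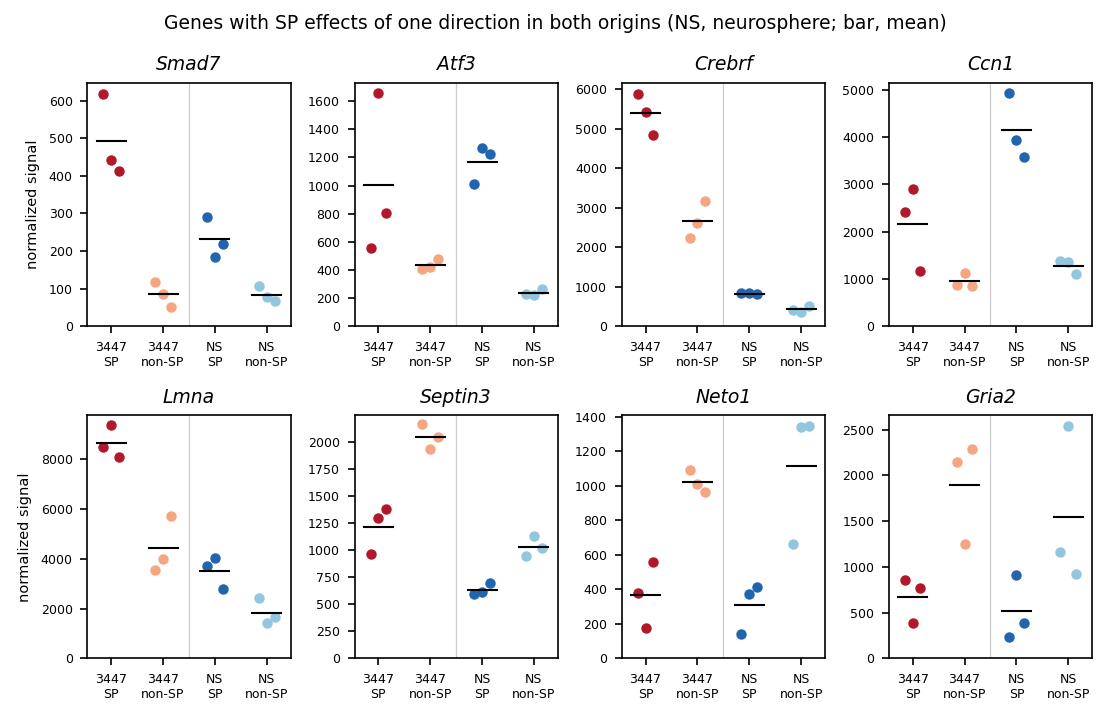
Normalized signal (linear axis from 0, arbitrary units) of 8 genes in each array of the 4 groups, SP left of non-SP and line 3447 left of neurospheres (NS); bars mark group means. Smad7, Atf3, Crebrf, Ccn1 and Lmna are higher and Septin3, Neto1 and Gria2 lower in SP arrays than in non-SP arrays of both origins, without overlap within an origin.

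Fewer genes were lower in SP cells of both origins, and several encode proteins of synapses and of oligodendrocyte progenitors. Septin3, a neuronal septin of the cytoskeleton, fell by 0.72 ± 0.14 on average (adjusted p = 0.0473). Its signals were 968, 1296 and 1382 in 3447 SP and 2166, 1933 and 2041 in 3447 non-SP arrays, against 593, 612 and 695 in neurosphere SP and 944, 1126 and 1021 in neurosphere non-SP arrays. The fractions separated in both origins with effects of -0.76 ± 0.19 in line 3447 and -0.69 ± 0.19 in neurospheres, and the call held in 1 of the 15 fits that left out an array. Lrrtm1, a synaptic adhesion protein, fell by 1.74 ± 0.32 on average (adjusted p = 0.0454). Lrrtm1 had 17.0, 57.5 and 3.04 in 3447 SP and 69.9, 101 and 50.1 in 3447 non-SP arrays, against 2.12, 3.73 and 1.46 in neurosphere SP and 82.7, 79.7 and 47.6 in neurosphere non-SP arrays. These signals lay near or below the array median, and the tumour fractions overlapped. The Lrrtm1 call held in 4 of the 15 fits.

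Neto1 and Gria2, an auxiliary subunit of kainate receptors and a subunit of AMPA receptors, both glutamate-gated channels, separated in both origins without passing the average test. Neto1 had 376, 177 and 557 in 3447 SP and 1092, 1013 and 962 in 3447 non-SP arrays, against 142, 376 and 414 in neurosphere SP and 665, 1340 and 1350 in neurosphere non-SP arrays. Gria2 had 860, 388 and 768 in 3447 SP and 2147, 1250 and 2283 in 3447 non-SP arrays, against 238, 914 and 387 in neurosphere SP and 1166, 2541 and 917 in neurosphere non-SP arrays. All SP arrays lay below all non-SP arrays of their origin, although for Gria2 the highest neurosphere SP array, at 914, all but reached the lowest non-SP array, at 917. The averages were -1.71 ± 0.34 for Neto1 (adjusted p = 0.0604) and -1.57 ± 0.36 for Gria2 (adjusted p = 0.125). Under the block for neurosphere pairs both passed, with adjusted p of 0.0187 for Neto1 and 0.0190 for Gria2.

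Gpr17, a receptor of oligodendrocyte progenitors, had 64.2, 95.7 and 232 in 3447 SP and 365, 180 and 313 in 3447 non-SP arrays, against 6.25, 29.3 and 4.04 in neurosphere SP and 74.5, 54.1 and 55.6 in neurosphere non-SP arrays. The fractions overlapped in line 3447 and separated in neurospheres, where the signals were near background. Its average of -1.33 ± 0.29 did not pass (adjusted p = 0.117) and passed under the neurosphere block (adjusted p = 0.0498). The other genes with the smallest joint p in this direction were Mapk11, a p38 kinase, Pcdhb10, a protocadherin, and Zfp60, a zinc finger protein, with averages of -0.98 ± 0.22, -1.06 ± 0.23 and -0.89 ± 0.22. Mapk11, Pcdhb10 and Zfp60 separated in both origins and did not pass (adjusted p = 0.125, 0.0973 and 0.157), while Mapk11 and Pcdhb10 passed under the neurosphere block (adjusted p = 0.0498 and 0.0461).

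Lists that hold such genes differed. Of 19 measured oligodendrocyte progenitor genes, 14 were below 0 in both origins, against 26.8% of all genes, 0 were above 0 in both, and 0 passed the average test; the medians were -0.40 in line 3447 and -0.35 in neurospheres. Of 27 synaptic adhesion and axon guidance genes, 11 were below 0 in both and 5 above 0 in both, against 26.8% and 32% of all genes. The other 11 had opposite signs (40.7%, against 41.2% of all genes). From this list 1 gene passed the average test (Lrrtm1, lower), and the medians were -0.09 in line 3447 and -0.20 in neurospheres. Of 19 neuron genes, 8 were below 0 in both and 6 above 0 in both, against 26.8% and 32% of all genes. Their medians were 0.01 in line 3447 and -0.11 in neurospheres, with 0 past the average test. Astrocyte genes lay the other way: of 22, 13 were above 0 in both origins, against 32% of all genes, and 2 below 0 in both, 19 of 22 were above 0 in neurospheres, and 0 passed the average test. The astrocyte medians were 0.24 in line 3447 and 0.49 in neurospheres, the first at -0.08 with arrays centred on their medians. The mean log2 level of the astrocyte genes was 8.96, 8.72 and 9.004 in 3447 SP and 8.53, 8.77 and 8.59 in 3447 non-SP arrays, against 10.24, 10.58 and 9.64 in neurosphere SP and 9.91, 9.53 and 9.50 in neurosphere non-SP arrays. Both origins overlapped, although each neurosphere SP array lay above the non-SP array of its own number, by 0.33, 1.06 and 0.14. How far shares of these cell types entered the results was not tested. For the oligodendrocyte progenitor genes, the mean log2 level was 9.95, 9.65 and 10.35 in 3447 SP and 10.51, 10.36 and 10.18 in 3447 non-SP arrays, which overlapped. In neurospheres it was 7.87, 8.60 and 7.98 in SP and 8.62, 8.93 and 8.60 in non-SP arrays, with SP array 2 only just below the lowest non-SP array.

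Of 15 measured glutamate transporter and receptor genes, 10 were below 0 in both origins and 0 above 0 in both, against 26.8% and 32% of all genes. From this list 1 gene passed the average test (Slc1a1, lower), and the medians were -0.49 and -0.43 in line 3447 and neurospheres. Replication and G1/S genes, which cells use to enter and complete S phase, were below 0 in both origins for 31 of 38, against 26.8% of all genes. Their medians were -0.62 in line 3447 and -0.17 in neurospheres, and 0 passed the average test. Their mean log2 level was 10.26, 9.65 and 10.18 in 3447 SP and 10.55, 10.56 and 10.74 in 3447 non-SP arrays, against 10.07, 10.40 and 10.26 in neurosphere SP and 10.32, 10.60 and 10.34 in neurosphere non-SP arrays, separated in line 3447 only. Within equally numbered neurosphere arrays the G1/S mean was lower in SP by 0.25, 0.20 and 0.07. Without array 2 of the 3447 SP the line 3447 median was -0.41, and without array 1 of the neurosphere SP the neurosphere median was -0.06.

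Enzymes of cholesterol synthesis were below 0 in both origins for 21 of 23 measured genes and above 0 in both for 0, against 26.8% and 32% of all genes. The medians were -0.68 in line 3447 and -0.18 in neurospheres, and 0 of these enzymes passed the average test. Their mean log2 level was 10.90, 10.44 and 11.04 in 3447 SP and 11.61, 11.44 and 11.16 in 3447 non-SP arrays, against 10.79, 11.31 and 11.69 in neurosphere SP and 10.91, 11.52 and 11.90 in neurosphere non-SP arrays. The tumour fractions separated and the neurosphere fractions overlapped, although each neurosphere SP array lay below the non-SP array of its own number, by 0.12, 0.22 and 0.20. The neurosphere median turned positive without array 1 of the SP (0.06) or array 3 of the non-SP (0.03), with 15 of 23 genes then above 0. Fdft1, squalene synthase, had 3419, 2164 and 4293 in 3447 SP and 6196, 5784 and 6096 in 3447 non-SP arrays, against 3522, 3833 and 6605 in neurosphere SP and 3465, 4870 and 6258 in neurosphere non-SP arrays. Only its tumour fractions separated, and its interaction of -0.84 ± 0.38 did not pass (adjusted p = 0.999). ATF4 targets of the amino acid stress response were above 0 in both origins for 18 of 21, against 32% of all genes. These targets had medians of 0.13 in line 3447 and 0.25 in neurospheres and 0 past the average test. With arrays centred on their medians the line 3447 median was -0.37, beside -0.37 for all genes under that scaling.

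**Figure D3:**
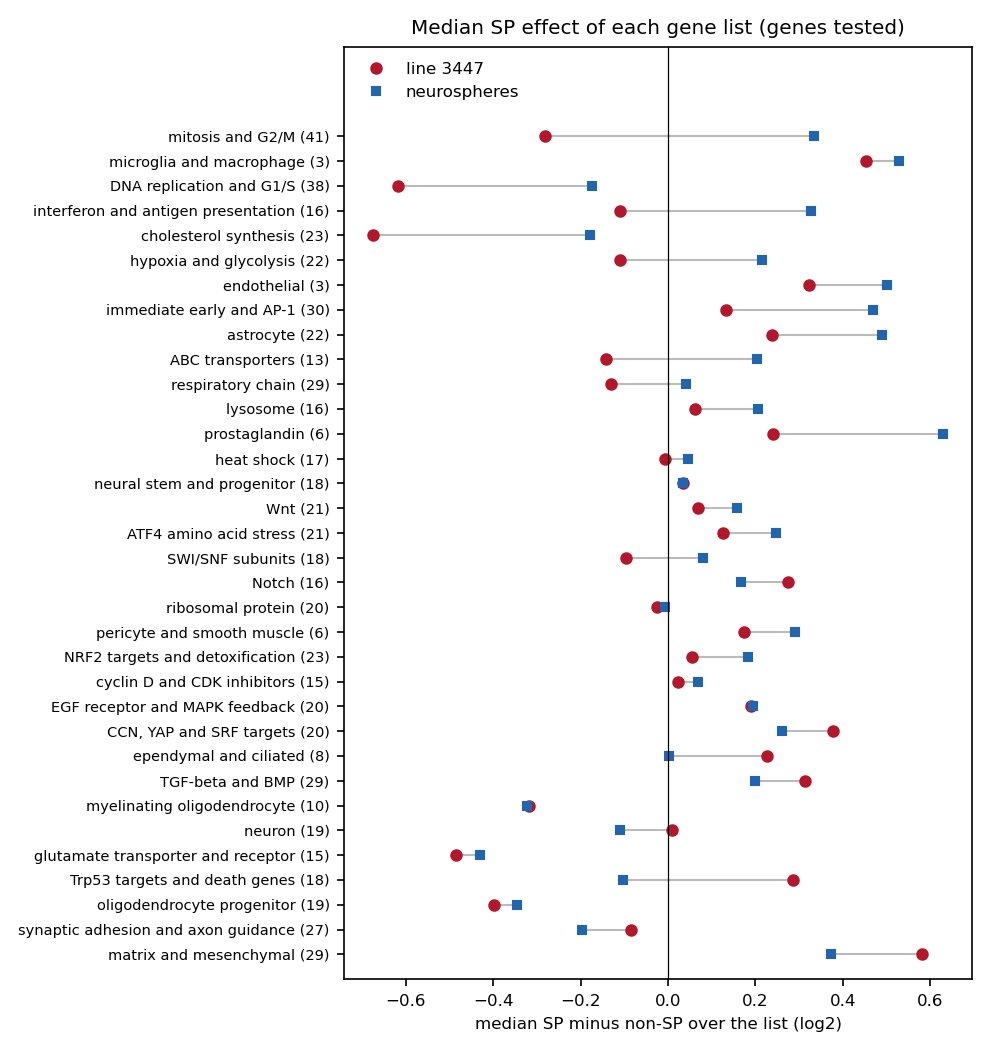
Median SP effect (log2 SP minus non-SP, horizontal axis) over the measured genes of each of 34 lists, line 3447 as circles and neurospheres as squares, with the number of genes tested in brackets; lists are ordered by the median interaction. Most lists have both medians on the same side of 0, and mitosis and G2/M genes have medians of -0.28 in line 3447 and 0.33 in neurospheres.

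Genes of mitosis and the G2/M transition formed the list with the most members of opposite sign in number, 33 of 41 (80.5%, against 41.2% of all genes). All 33 were below 0 in line 3447 and above 0 in neurospheres, an arrangement found in 24.9% of all genes. The interaction was below 0 for 40 of 41 and did not pass for any (0 of 41 at an adjusted p under 0.05, and 2 of 41 at an unadjusted p under 0.05), with a median of -0.68 beside -0.05 for all genes. Many promoters of these genes share a pair of elements known from human and mouse cells to confine their expression to G2 and mitosis, the cell cycle genes homology region (CHR) and CCAAT boxes. In RefSeq promoter windows of GRCm38.p6, from 250 bases before to 50 after the start site, TTTGAA, the letters of the CHR, occurred on either strand in 26 of 35 promoters of the list (74.3%), against 1095 of 9667 promoters of all genes tested (11.3%). CCAAT occurred in 27 of 35 (77.1%), against 39.3% of all, and both elements in 23 of 35 (65.7%), against 4.74% of all. For replication and G1/S genes the CHR letters occurred in 4 of 32 (12.5%) and CCAAT in 20 of 32 (62.5%). The promoters of the mitotic kinases Aurka and Plk1 and of the anaphase activator Cdc20 are shown as examples that hold both, 5′ to 3′ on the gene's strand, with these elements in capitals. They lie at chr2:172370521-172370820 on the minus strand for Aurka, chr7:122159185-122159484 on the plus strand for Plk1 and chr4:118437294-118437593 on the minus strand for Cdc20. The first base of the CHR letters is 32 bases after the start site in Aurka, 30 after it in Plk1 and 18 before it in Cdc20. A match is a description of these letters and not evidence of a working site.
Aurka: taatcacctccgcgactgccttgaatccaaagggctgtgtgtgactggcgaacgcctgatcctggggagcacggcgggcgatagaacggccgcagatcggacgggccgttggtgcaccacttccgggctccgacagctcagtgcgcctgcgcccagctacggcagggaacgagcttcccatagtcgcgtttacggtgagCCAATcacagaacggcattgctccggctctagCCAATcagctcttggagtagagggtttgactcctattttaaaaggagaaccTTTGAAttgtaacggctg
Plk1: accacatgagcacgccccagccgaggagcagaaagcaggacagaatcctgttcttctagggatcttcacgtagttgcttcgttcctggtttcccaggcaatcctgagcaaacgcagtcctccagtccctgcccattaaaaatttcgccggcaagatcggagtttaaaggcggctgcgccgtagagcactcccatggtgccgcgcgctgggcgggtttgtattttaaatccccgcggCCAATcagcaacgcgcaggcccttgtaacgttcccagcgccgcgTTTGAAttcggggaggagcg
Cdc20: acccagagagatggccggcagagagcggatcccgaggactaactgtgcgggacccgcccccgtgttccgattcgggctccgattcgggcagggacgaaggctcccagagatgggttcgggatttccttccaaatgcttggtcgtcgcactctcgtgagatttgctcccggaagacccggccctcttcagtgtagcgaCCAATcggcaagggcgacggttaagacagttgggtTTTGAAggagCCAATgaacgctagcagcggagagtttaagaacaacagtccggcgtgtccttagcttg

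The signals of these 3 genes differed between single arrays more than between fractions of line 3447. Aurka had 226, 120 and 267 in 3447 SP and 252, 219 and 216 in 3447 non-SP arrays, against 180, 296 and 291 in neurosphere SP and 124, 95.3 and 180 in neurosphere non-SP arrays. Plk1 had 256, 81.0 and 288 in 3447 SP and 219, 162 and 191 in 3447 non-SP arrays, against 182, 362 and 241 in neurosphere SP and 142, 115 and 144 in neurosphere non-SP arrays. Cdc20 had 1647, 819 and 1365 in 3447 SP and 1274, 2140 and 1055 in 3447 non-SP arrays, against 680, 1281 and 1334 in neurosphere SP and 636, 863 and 809 in neurosphere non-SP arrays. In each of the 3 genes array 2 was the lowest of the 3447 SP arrays by a wide margin, while the other 3447 SP arrays lay within or above the non-SP range. The interactions were -1.09 ± 0.47 for Aurka, -0.88 ± 0.56 for Plk1 and -0.67 ± 0.52 for Cdc20, and did not pass (adjusted p = 0.999 each). Ttk, a spindle checkpoint kinase, had an interaction of -1.12 ± 0.49 (adjusted p = 0.999), but another of its probe sets was at 0.12.

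The mean log2 level of all 41 mitotic genes was 10.33, 9.29 and 10.27 in 3447 SP and 10.29, 10.18 and 10.26 in 3447 non-SP arrays, so that array 2 of the SP stood apart below all other arrays of the line. In neurospheres it was 9.45, 10.35 and 10.15 in SP and 9.33, 9.85 and 9.69 in non-SP arrays, and each SP array lay above the non-SP array of its own number, by 0.12, 0.50 and 0.45. Without array 2 of the 3447 SP the line 3447 median was 0.01, with 23 of 41 genes above 0, 19 genes had opposite signs and the interaction median was -0.36, with 35 of 41 below 0. Leaving out any 1 array kept the interaction median between -0.98 and -0.36. The lower sign in line 3447 thus rested on 1 array, while the excess of the neurosphere effect over the line 3447 effect was smaller but present without it. The same array was the lowest 3447 SP array for replication genes, at 9.65 against 10.26 and 10.18, and for cholesterol synthesis, at 10.44 against 10.90 and 11.04, and the highest for immediate early genes, at 10.84 against 10.40 and 10.65.

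**Figure D4:**
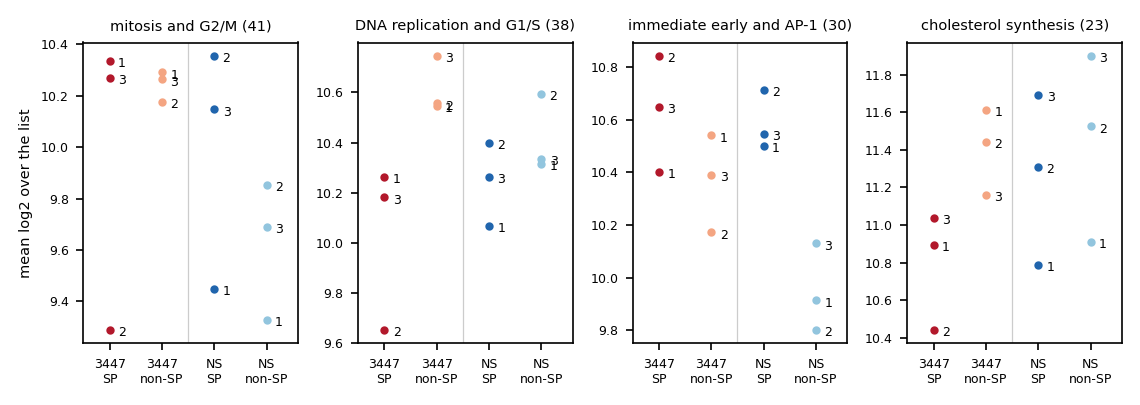
Mean log2(signal + 16) over the measured genes of 4 lists in each array (vertical axes do not start at 0; numbers are replicate numbers), SP left of non-SP and line 3447 left of neurospheres (NS). For mitosis and G2/M genes array 2 of the 3447 SP lies at 9.29 and the other 3447 arrays between 10.18 and 10.33.

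Hypoxia and glycolysis genes had the next largest share of opposite signs among lists of over 10 measured genes, 16 of 22 (72.7%, against 41.2% of all genes). All 16 were below 0 in line 3447 and above 0 in neurospheres. The list medians were -0.11 and 0.22, with 0 of 22 past the interaction test. The sign of these medians changed with single arrays. The line 3447 median was 0.08 without array 1 of the SP and 0.03 without array 1 of the non-SP, and the neurosphere median was -0.04 without array 3 of the SP.

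Among single genes, the 12 with the smallest interaction p did not pass, all with adjusted p = 0.999, and their values are given as measurements. They fall into genes that separated in line 3447 alone, genes that separated in neurospheres alone, and a few that separated in opposite directions. Stk32b, a serine/threonine kinase, had 858, 427 and 228 in 3447 SP and 48.3, 106 and 75.9 in 3447 non-SP arrays, against 2.45, 30.4 and 18.7 in neurosphere SP and 30.3, 26.3 and 42.3 in neurosphere non-SP arrays. The tumour fractions separated and the neurosphere signals of Stk32b were all below the array median, and its interaction was 2.99 ± 0.66. Kcna4, a voltage-gated potassium channel, had the same form, with 879, 823 and 1105 in 3447 SP and 351, 314 and 196 in 3447 non-SP arrays, against at most 50.3 in any neurosphere array, and an interaction of 2.36 ± 0.67.

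For Ntn4, a laminin-related matrix and guidance protein, both origins had signal. Ntn4 had 280, 394 and 549 in 3447 SP and 128, 109 and 159 in 3447 non-SP arrays, against 386, 541 and 645 in neurosphere SP and 430, 1112 and 768 in neurosphere non-SP arrays. The tumour fractions separated, and the neurosphere fractions overlapped with each SP array below the non-SP array of its own number, with an interaction of 1.95 ± 0.50. Sntb1, a syntrophin that links membrane proteins to the dystrophin complex, had 2349, 1680 and 1520 in 3447 SP and 268, 913 and 562 in 3447 non-SP arrays, against 181, 351 and 205 in neurosphere SP and 242, 280 and 324 in neurosphere non-SP arrays. The interaction of Sntb1 was 2.01 ± 0.56, and its 3 other probe sets lay between 1.91 and 2.40. Galnt4, an enzyme that starts mucin-type O-glycosylation, had 550, 387 and 337 in 3447 SP and 125, 200 and 110 in 3447 non-SP arrays, while its neurosphere effect was 0.00 ± 0.29 and its interaction 1.46 ± 0.41. Smarcb1, a core subunit of the SWI/SNF chromatin remodelling complex, had 388, 902 and 613 in 3447 SP and 2517, 1676 and 2077 in 3447 non-SP arrays, against 2453, 2390 and 1969 in neurosphere SP and 1422, 3354 and 1543 in neurosphere non-SP arrays. The interaction of this probe set of Smarcb1 was -1.97 ± 0.46, but the other probe set was at -0.07, so the probe sets of this gene disagree.

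Slc1a1, a neuronal glutamate transporter, separated in neurospheres only. It had 7020, 4887 and 5293 in 3447 SP and 6298, 7279 and 7397 in 3447 non-SP arrays, against 219, 420 and 498 in neurosphere SP and 1451, 1101 and 1218 in neurosphere non-SP arrays. Slc1a1 fell by 1.03 ± 0.18 on average (adjusted p = 0.0451), carried by the neurospheres, where the effect was -1.75 ± 0.26, against -0.30 ± 0.26 in line 3447, and the interaction was 1.46 ± 0.36. Another probe set of Slc1a1 had an average of -0.41 and an interaction of 0.93. The Slc1a1 call of the average held in 4 of the 15 fits that left out an array. Palm2, a paralemmin family protein of the plasma membrane, had 885, 959 and 1098 in 3447 SP and 941, 1046 and 524 in 3447 non-SP arrays, against 20.0, 4.29 and 9.57 in neurosphere SP and 43.1, 65.7 and 48.9 in neurosphere non-SP arrays. The neurosphere values of Palm2 lay near or below the array median, and its interaction of 1.63 ± 0.42 stood beside 0.19 for another probe set.

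Most genes of this and the next paragraph were picked because their arrays separated in opposite directions. One of them was Rgcc, a regulator of cell cycle kinases. Rgcc had 933, 751 and 1037 in 3447 SP and 1380, 1088 and 1471 in 3447 non-SP arrays, against 560, 508 and 657 in neurosphere SP and 295, 451 and 406 in neurosphere non-SP arrays. Its effects were -0.53 ± 0.23 in line 3447 and 0.58 ± 0.23 in neurospheres, an interaction of -1.10 ± 0.33, and another probe set gave -0.86. Tmem198b, a transmembrane protein gene, had 2714, 2338 and 2081 in 3447 SP and 3215, 3358 and 3126 in 3447 non-SP arrays, against 5455, 7369 and 4780 in neurosphere SP and 3819, 4645 and 4729 in neurosphere non-SP arrays. The margin in neurospheres was narrow, and the interaction of Tmem198b was -0.85 ± 0.25, with -0.51 for another probe set. Pkig, an inhibitor of protein kinase A, was lower in the 3447 SP at 8846, 6892 and 8901 against 11031, 9215 and 10022 in 3447 non-SP arrays, and higher in the neurosphere SP at 10141, 9920 and 10203 against 9304, 9003 and 7964 in neurosphere non-SP arrays. The interaction of Pkig was -0.51 ± 0.16, and another probe set gave -1.91. Tunar, a long noncoding RNA of neural cells, and the Wnt ligand Wnt3a separated in the same way, but their neurosphere signals, at most 27.8 and 45.3, lay below the array median, and so did those of Wnt3a in the 3447 SP. Dhodh, an enzyme of pyrimidine synthesis, and Celsr1, a planar polarity cadherin, were the other 2 named in this direction, with interactions of -1.04 ± 0.38 and -1.51 ± 0.59, and another probe set of Dhodh was at -0.23.

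In the other direction, higher in 3447 SP and lower in neurosphere SP, the separations were small. Crispld1, a secreted protein gene, had 53.0, 44.6 and 28.4 in 3447 SP and 20.9, 13.3 and 6.08 in 3447 non-SP arrays, against 4.48, 15.6 and 4.71 in neurosphere SP and 37.2, 43.9 and 15.8 in neurosphere non-SP arrays. All but 1 of these signals lay below the array median, so the interaction of 1.96 ± 0.61 was measured near background. U2surp, a splicing factor, had 1799, 1904 and 1777 in 3447 SP and 1441, 1405 and 1583 in 3447 non-SP arrays, against 1910, 2650 and 1897 in neurosphere SP and 2685, 2846 and 2971 in neurosphere non-SP arrays. Its interaction of 0.72 ± 0.33 stood beside 0.10 to 0.28 for its 3 other probe sets. The prenyltransferase subunit Pggt1b, the long noncoding RNA Tug1, Leng8 and Mbip had interactions between 0.47 and 0.63, other probe sets of Pggt1b were at 0.21 and 0.25, and that of Tug1 was -0.10 with arrays centred on their medians.

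**Figure D5:**
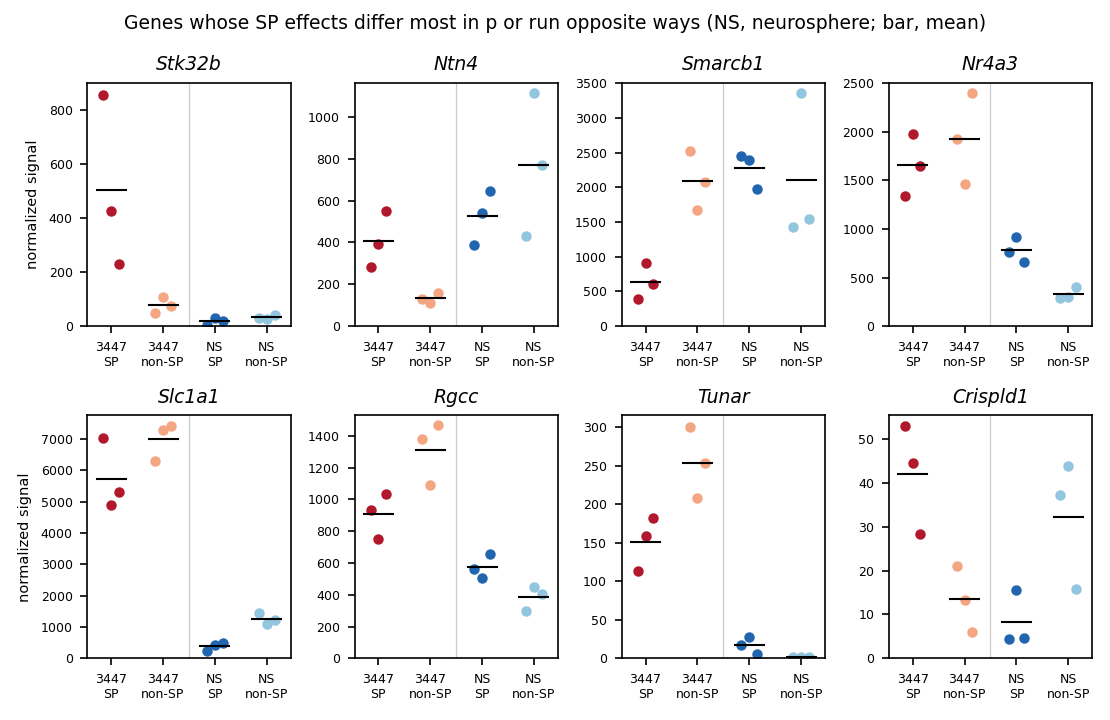
Normalized signal (linear axis from 0, arbitrary units) of 8 genes in each array of the 4 groups, SP left of non-SP and line 3447 left of neurospheres (NS); bars mark group means. Stk32b, Ntn4 and Smarcb1 separate in line 3447 alone, Nr4a3 and Slc1a1 in neurospheres alone, and Rgcc, Tunar and Crispld1 in opposite directions.

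Itga6, the integrin subunit alpha 6 used as a neural and tumour stem cell surface marker, was chosen after its values were seen, because it alone passed the interaction test under an alternative. Itga6 had 5201, 4389 and 5484 in 3447 SP and 2018, 1574 and 2221 in 3447 non-SP arrays, against 7742, 9686 and 9154 in neurosphere SP and 9197, 11595 and 10263 in neurosphere non-SP arrays. The tumour fractions separated with SP higher. The neurosphere fractions overlapped, although each SP array lay below the non-SP array of its own number, by 0.25, 0.26 and 0.16 on the log2 scale. The effects of Itga6 were 1.38 ± 0.43 in line 3447 and -0.22 ± 0.43 in neurospheres, an interaction of 1.60 ± 0.60 (adjusted p = 0.999), and another probe set gave 2.39. The test passed when the 12 compared arrays were fitted alone (adjusted p = 0.0380) and when array 1 of the 4346 SP, which was at 277 against 1561 and 1438 in the other 4346 SP arrays, was left out of the spread (adjusted p = 0.0357). Ccnd2, a D-type cyclin of the G1 phase, had the largest interaction in its list of 15 cyclin D and CDK inhibitor genes, 2.72 ± 0.97 (adjusted p = 0.999). Ccnd2 had 346, 304 and 65.2 in 3447 SP and 1.24, 26.1 and 60.5 in 3447 non-SP arrays, against 8178, 11552 and 10989 in neurosphere SP and 9666, 13423 and 13635 in neurosphere non-SP arrays. Its level in line 3447 was far below that in neurospheres, where each SP array lay below the non-SP array of its own number, by 0.24, 0.22 and 0.31, and its 6 other probe sets had interactions of 0.87 to 1.88. The 3447 non-SP signals of Ccnd2 and that of 3447 SP array 3 lay near or below the array median. Its interaction ran from 1.51 to 3.88 under the alternatives other than leaving out 1 array.

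None of the side population and stem cell genes Abcg2, Abcb1b, Abcc1, Egfr, Nes, Prom1 and Sox2 passed the average or the interaction test. Abcg2, the main dye exporter of side populations, had 4129, 2110 and 3561 in 3447 SP and 1933, 1962 and 1253 in 3447 non-SP arrays, against 5940, 6307 and 5124 in neurosphere SP and 4358, 3550 and 3775 in neurosphere non-SP arrays. All SP arrays lay above all non-SP arrays of their origin. The effects were 0.90 ± 0.23 in line 3447 and 0.57 ± 0.23 in neurospheres, and the average of 0.73 ± 0.16 did not pass (adjusted p = 0.114), except without array 2 of the 3447 SP (adjusted p = 0.0254). The difference of the Abcg2 effects was 0.33 ± 0.32, and it was -0.21 with arrays centred on their medians. Abca1, a cholesterol exporter of the same superfamily, had 473, 684 and 391 in 3447 SP and 104, 233 and 169 in 3447 non-SP arrays, against 1202, 1445 and 950 in neurosphere SP and 787, 401 and 556 in neurosphere non-SP arrays. It separated in both origins, with an average of 1.30 ± 0.26 that did not pass (adjusted p = 0.0604) and passed under the neurosphere block (adjusted p = 0.0333), and another probe set had an average of 0.52. Of 13 measured ABC transporters, 4 were above 0 in both origins and 3 below 0 in both, against 32% and 26.8% of all genes, and 0 passed the average test.

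The multidrug transporters Abcb1b and Abcc1 had averages of 0.06 ± 0.23 and -0.02 ± 0.19, and their fractions overlapped in both origins. Sox2 and Nes, a transcription factor and an intermediate filament of neural stem cells, had averages of 0.13 ± 0.08 (adjusted p = 0.728) and -0.32 ± 0.17 (adjusted p = 0.637). Prom1, which encodes the surface marker CD133, had 9.24, 22.0 and 17.9 in 3447 SP and 80.9, 31.0 and 33.9 in 3447 non-SP arrays, against 125, 1297 and 329 in neurosphere SP and 169, 1043 and 255 in neurosphere non-SP arrays. Most tumour signals of Prom1 were below the array median, and its neurosphere effect was 0.09 ± 0.71. Within equally numbered neurosphere arrays the log2 differences of Prom1 were -0.39, 0.31 and 0.35. Egfr, the receptor of which verbB is an oncogenic form, lay between 1.69 and 33.4 in the 6 arrays of line 3447 and between 2674 and 7671 in those of neurospheres, and its effect in neurospheres was -0.40 ± 0.44. Of 18 measured neural stem and progenitor genes, 6 were above 0 in both origins and 6 below 0 in both, against 32% and 26.8% of all genes. Their medians were 0.03 in line 3447 and 0.04 in neurospheres.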

How the data were processed

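Per the labels' protocols, RNA was isolated with an RNeasy Micro kit, its amplification used the NuGEN Ovation Pico kit, and the product was hybridised to Affymetrix mouse arrays. The deposited values are linear intensity signals that the authors computed with MAS5 in Affymetrix Expression Console, per the submitters' processing notes, with versions not given in the sources used here. On the deposited scale, the mean signal of each array, trimmed by 2% at either end, was 500. Array medians still differed 2.23 times, so signals were quantile normalized, and 16 was added before log2. Of 45101 probe sets, 26256 lay above their array's median in at least 3 arrays, and the one with the highest mean stood for each gene, which left 11908 genes of 18193 annotated. Symbols came from the platform annotation, and 34741 probe sets matched RefSeq by Entrez identifier.

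The model was fitted by limma 3.58.1 (R 4.3.3) to 15 arrays in 5 groups. It left 10 degrees of freedom, let the spread follow the level, and gave two-sided tests with Benjamini-Hochberg adjustment. The joint test used the larger of both origins' p-values. Deviations from group means of equally numbered SP and non-SP arrays correlated at 0.58, 0.52 and 0.62 in neurospheres, which pairs them. In line 3447 they correlated at -0.22, -0.25 and -0.12, which does not pair equal numbers. Positive correlations there joined unequal numbers, 0.37 for SP 1 with non-SP 2, 0.30 for SP 2 with non-SP 3 and 0.22 for SP 3 with non-SP 1. Such pairs were not fitted. The number of arrays limits the precision, and the labels do not exclude that neurosphere arrays of 1 fraction share a source.

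The members and gene lists were chosen with earlier results of these data known. Of 785 list entries, 735 had a probe set and 639 were tested. Genes named were the 12 with the smallest interaction p, the 8 with the smallest joint p in each direction, up to 8 past the average test in each direction, 6 in each opposite direction among genes separated in both origins, 9 stem, dye export and tumour genes (Abcb1a and Trp53 were not tested), and some of the up to 3 of each list by interaction and by joint p. The other genes that the list rule chose are not described. Plk1, Cdc20 and Fos were added as textbook members. The 536 clone and predicted gene names tested were counted and not named. Motifs were searched on both strands of RefSeq promoter windows of GRCm38.p6, which served also for chromosomes. Alternatives were the normalization, added constant, filter, probe sets, arrays fitted, weights, trend, replicate block and leaving out each array.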

Additional observations from a re-analysis of the deposited data

Results flagged for a closer look

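In 45 of 11908 genes (0.378%) the 3 SP arrays all lay above the 3 non-SP arrays in 1 origin and all below them in the other, with 0 passing the interaction test after adjustment. Such separation also arises with no effects, and 45 genes are not shown to be an excess. Values are given for the 13 of them that the rule for naming genes chose. Except for Wnt3a, named for its interaction p, these were picked from genes with this separation, so it is not a result about them. With the SP lower in line 3447 and higher in neurospheres, the interactions on the log2 scale were -1.104 for Rgcc, -1.9895 for Wnt3a, -1.5231 for Tunar, -0.8459 for Tmem198b, -0.5092 for Pkig, -1.0356 for Dhodh and -1.5123 for Celsr1. With the SP higher in line 3447 and lower in neurospheres they were 1.9579 for Crispld1, 0.7165 for U2surp, 0.4734 for Pggt1b, 0.4713 for Tug1, 0.6303 for Leng8 and 0.6133 for Mbip.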

How the results depend on the processing

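The interaction called 0 genes under every alternative except 1 gene, Itga6, with the 12 arrays fitted alone, also when normalized alone, and without array 1 of the 4346 SP. Leaving out single arrays otherwise kept it at 0. The joint test called 0 throughout. For the average, 20 calls, 17 higher and 3 lower, became 12 with arrays centred on their medians (6 of the 20), 7 higher and 5 lower, 13 with the 12 arrays alone, 11 without a filter, 12 with the mean of a gene's probe sets, 6 with every probe set on its own, 4 without a trend and 95 with a replicate block in neurospheres; single arrays left out gave 4 to 28. Genes at unadjusted p under 0.05 in both origins with 1 sign, 103, were 54 with arrays centred on their medians, 163 with a replicate block in both origins and 186 with one in neurospheres, and 60 to 152 with single arrays left out. The 5 such genes of opposite signs were 1 with arrays centred on their medians, 9 with the 12 arrays alone, 3 with a constant of 64, 13 without a filter, 3 with the mean of probe sets, 8 with every probe set, 8 with a block in both origins and 8 without array 3 of the 3447 SP and of the 4346 SP, a setting chosen after seeing the data; single arrays left out gave 1 to 9. The correlation of effects, 0.315, was 0.260 with a constant of 1, 0.350 with 64, 0.200 without a filter, and 0.238 to 0.327 with single arrays left out. The interactions of Abcg2 and Tug1 turned to -0.21 and -0.10 with arrays centred on their medians, a setting that shifted the median interaction of all genes to -0.42 (main -0.05) and their median line 3447 effect to -0.37 (main -0.01) and put 82.4% of genes below 0. The mitosis median lay -0.63 from the median of all genes, and -0.66 with arrays centred on their medians. Among called genes, the block in both origins kept 12 of the 20 calls. It paired equal numbers, which the line 3447 arrays did not support, and other pairings of that line were not fitted. The neurosphere block lost 0 of the 20 calls. The causes of these changes were not tested. Signals near background in at least 1 origin limit Lrrtm1, Gpr17, Tunar, Wnt3a, Crispld1, Palm2, Stk32b, Kcna4, Ccnd2 and Prom1, among others.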
